A study of Homo sapiens with 2 samples.

Results

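A set of 10 genes that serve as markers of astrocytes and of glioma stem cells was followed in U251, a human glioma cell line. It holds GFAP, GJA1, S100B, AQP4, SLC1A3, SOX2, SOX9, NES, OLIG2 and PROM1. All probe sets whose platform annotation gives exactly 1 of these symbols were taken, which gave 24 probe sets for the 10 genes, out of 41097 probe sets with 1 symbol and 54675 on the array. No further probe set carried a member's symbol together with another gene's. The rule uses symbols and no measured values.

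The series holds 1 array of U251 cells transfected with a control and 1 array of U251 cells transfected with miR-31, a microRNA, both grown in DMEM with serum. Neither the kind of construct nor the time to harvest is given in the labels, and nothing says whether a pool or a clone was used. Total RNA was hybridised to HG-U133_Plus_2 arrays (Affymetrix), where groups of short probes called probe sets stand for the transcripts. With 1 array per group there is no replicate spread, and every difference below is between 2 RNA samples, without a test.

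The mature miR-31 that RefSeq lists, at chr9:21512158-21512178 of GRCh38.p14 on the minus strand, is shown because it is the agent that differs by label between the arrays; the labels do not name the arm. Its seed, bases 2 to 8, is in capitals.
hsa-miR-31-5p: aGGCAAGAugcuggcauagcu
The level of mature miR-31 and seed matches in transcripts were not analysed here.

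Astrocytes are the supporting glia of the brain. They carry the intermediate filament protein GFAP, couple to each other through connexin channels, take up glutamate from synapses and move water at blood vessels. Neural stem cells share part of this programme, and add nestin, the SOX transcription factors and, in some cells, the surface protein prominin. Glioma cell lines can keep, lose or mix these features, so the markers describe which part of the lineage a line still transcribes.

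The marker set fell into 6 genes with bright probe sets and 4 genes without. GFAP, GJA1, SLC1A3, SOX2, SOX9 and NES each had at least 1 probe set above the level filter, which asks for a mean level over both arrays equal to an intensity of 62.7, the median of all probe sets. S100B, AQP4, OLIG2 and PROM1 had none. The name "astroglial and glioma stem markers" therefore has bright signal behind it for 6 of its 10 genes. Over the whole array 11787 of 19775 genes with 1 symbol passed the same filter. That share is near 6 of 10, so the count is no result about the markers. A dim probe set does not by itself show a dim gene. GFAP and SLC1A3 each had 1 probe set under the filter beside bright ones, and PROM1 has only 1 probe set here. In the miR-31 array GFAP and SOX2 were higher than in the control and GJA1, NES, SOX9 and SLC1A3 lower, all by less than 2-fold on their brightest probe sets; for SOX2 the direction turned when ratios were centred on the poly-A controls, RNAs that are spiked into a sample.

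**Figure D1:**
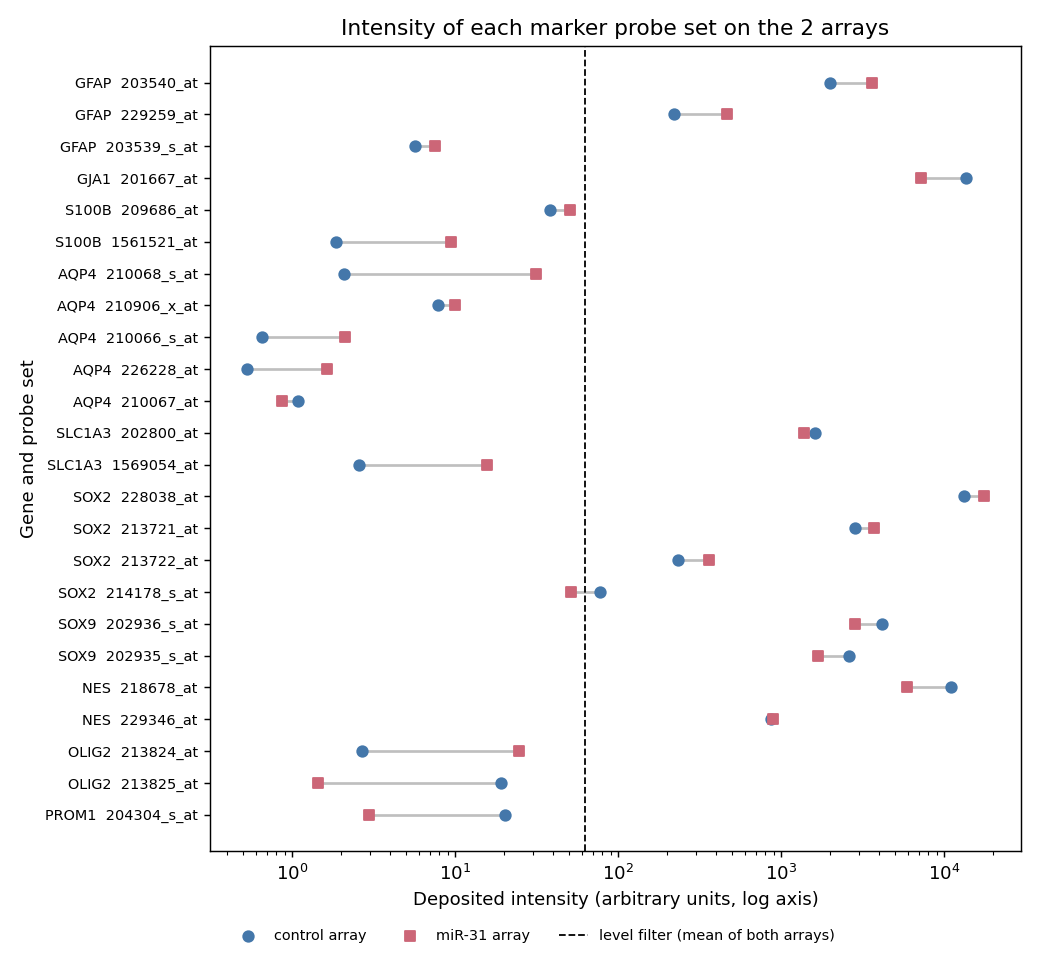
Deposited intensity of the 24 marker probe sets on a log axis, with the control array as circles, the miR-31 array as squares and the level filter (62.7) as a dashed line. The probe sets of S100B, AQP4, OLIG2 and PROM1 all lie left of the line on both arrays, while GFAP moves right and GJA1, SOX9 and the brighter NES probe set move left from control to miR-31.

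The arrays had been scaled to a common level, with a mean intensity of 500.1 on each after the lowest and highest 2% of probe sets were left out. Each ratio is log2(intensity + 16) with miR-31 minus that of the control, a scale that understates the change of dim genes. In 3142 genes with exactly 2 probe sets above the filter, the SD of a probe set's ratio was 0.33, so that a pair of probe sets of 1 gene differed with an SD of 0.47. This gauge leaves out differences between cultures. Of 19775 genes with 1 symbol on the array, 11787 passed the filter and were compared. Among these 53.2% had ratios above 0 and 46.8% below. By 2-fold or more 3.74% were higher and 1.58% lower, and the median ratio was 0.03. On the deposited scale 70.3% of those past 2-fold were higher. This share was 57.3% after quantile normalization, 59.4% after median centring, 59.0% after removal of a level trend, 42.0% with ratios centred on the hybridisation controls and 8.84% with the poly-A controls. The last pair of centrings lowers every ratio by 0.19 and 0.55. Intensities of different probe sets depend on their probes, so levels of different genes are not read as relative amounts of RNA. The level filter, the gauge of dim signal and the group of brightest genes only sort probe sets by signal.

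GFAP, the intermediate filament protein that defines astrocytes, was higher in the miR-31 array on both of its bright probe sets. Probe set 203540_at read 2007 on the control array and 3624 on the miR-31 array (log2 ratio 0.85). Probe set 229259_at had 220 and 464, a ratio of 1.03, and was the only bright marker probe set that reached 2-fold. The 2 values lie 0.18 apart, less than the SD of such a gap. The third GFAP probe set, 203539_s_at, had 5.71 and 7.52, both under the filter. Among the 2947 brightest genes 1.80%, and among all genes 5.57%, had a ratio as high as the 0.85 of GFAP. This limit is set by its own value and given as a description. The brightest genes start at a mean level equal to an intensity of 2174, above the control value of 2007. GFAP is thus in that group only through its miR-31 value, and the 1.80% carries that limit. Under the 5 other scalings the ratio of 203540_at lay between 0.30, centred on the poly-A controls, and 0.87.

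Other intermediate filament and linker genes lay on both sides of 0. Of 13 such genes 8 were compared, 3 with ratios above 0 and 5 below, beside 53.2% and 46.8% of all genes. The median of the 8 was -0.07. KRT18, a keratin of simple epithelia, was the only one past 2-fold, beside 1.58% of all genes at least 2-fold lower. It had 5950 on the control array and 2938 on the miR-31 array (-1.01). LMNB1, which encodes the nuclear lamina protein lamin B1, had -0.87. NEFL, the light neurofilament chain, had 22880 and 30354 (0.41), with its 3 probe sets between 0.41 and 0.73, and KRT8, the partner of KRT18, had 0.27.

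GJA1, which encodes connexin 43, the main gap junction protein of astrocytes, was lower in the miR-31 array. Its single probe set, 201667_at, read 13563 on the control array and 7186 on the miR-31 array, a ratio of -0.91. The control value was 1.89 times the miR-31 value, just short of 2-fold. Of the brightest genes 1.53%, and of all genes 2.15%, had a ratio as low as this. Centred on the hybridisation controls the ratio was -1.10 and on the poly-A controls -1.47, both past 2-fold, and it lay between -0.99 and -0.86 in the other scalings. No second probe set is named GJA1 here against which to set this value.

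Of 10 other connexin and pannexin genes with a named probe set, 4 were compared. Their ratios were split evenly around 0, with 2 above and 2 below, beside 53.2% and 46.8% of all genes. GJC1, which encodes connexin 45, had 2877 and 1652 (-0.79), but its 4 probe sets ran from -0.79 to -0.06. GJB2, connexin 26, had -0.31, PANX1 0.07 and PANX2 0.66, the last from an intensity of 111 in the control. GJB6, connexin 30, which astrocytes carry beside connexin 43, had at most 1.26 on the control array and 0.99 on the miR-31 array, both far under the filter.

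SLC1A3, the glutamate and aspartate transporter GLAST of astrocytes and radial glia, was slightly lower in the miR-31 array on the deposited scale. Probe set 202800_at had 1604 on the control array and 1379 on the miR-31 array, a ratio of -0.22, which is smaller than the SD of a single probe set. Of all compared genes, 25.7% lay as low. Centred on the hybridisation controls it had -0.41, where the median of all genes was -0.16. Centred on the poly-A controls it had -0.77, which is past 1.5-fold, but there the median of all genes was -0.52. The second probe set, 1569054_at, had 2.57 and 15.7, both under the filter. Of 11 other genes of glutamate and glutamine transport and synthesis, 9 were compared. Ratios were below 0 for 7 and above for 2, beside 46.8% and 53.2% of all genes. The median of the 9 was -0.26. SLC1A1, the transporter EAAC1 best known from neurons, had 614 and 1567 (1.33). SLC1A4, a transporter of neutral amino acids, had 1402 and 541 (-1.35), but its 5 probe sets ran from -1.35 to 0.34. GLUL, the glutamine synthetase of astrocytes, had ratios between 0.13 and 0.50, and GLUD1, glutamate dehydrogenase, had -0.43. SLC1A2, the main glutamate transporter of mature astrocytes, did not pass the filter, with at most 19.0 on the control array and 24.8 on the miR-31 array.

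AQP4, the water channel of astrocyte endfeet, stayed under the filter on all 5 of its probe sets. The lowest and highest intensities were 0.53 and 7.83 for the control, and 0.87 and 31.3 for miR-31. The highest value came from 210068_s_at, with 2.08 and 31.3 (1.39), while the other 4 probe sets had ratios between -0.02 and 0.12. An antisense RNA, AQP4-AS1, overlaps the gene in RefSeq, and its 2 probe sets were also under the filter, at 1.58 and 23.3 on the control array and 8.29 and 22.0 on the miR-31 array. Of 6 other aquaporins named on the array 3 were compared, AQP1 with 0.15, AQP3 with 0.65 on one probe set and -0.02 on another, and AQP11 with -0.04.

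S100B, a calcium-binding protein secreted by astrocytes and widely used as their marker, was also under the filter. Probe set 209686_at had 38.1 on the control array and 50.8 on the miR-31 array (0.30), and 1561521_at had 1.86 and 9.36 (0.51). The first is the marker probe set nearest below the filter. The nearest above it was SOX2 214178_s_at, with 77.5 and 51.0.

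SOX2, a transcription factor of neural stem cells, had 4 probe sets above the filter, of which 3 were higher in the miR-31 array. Probe set 228038_at had 13333 on the control array and 17486 on the miR-31 array (0.39), and 213721_at had 2832 and 3698 (0.38). Probe set 213722_at had 232 and 360 (0.60). The dimmest, 214178_s_at, went the other way, with 77.5 and 51.0 (-0.48), a gap of 0.87 to the brightest. Values this dim lie within the background range given below, so its direction cannot be separated from background. Centred on the poly-A controls the 2 brightest had -0.16 and -0.17 and 213722_at had 0.05, so the direction of SOX2 depended on that scaling; in the other scalings the brightest lay between 0.20 and 0.45. A ratio as high as 0.39 was found in 8.72% of the brightest genes and 20.2% of all genes. The long non-coding RNA SOX2-OT contains the SOX2 gene in RefSeq, and its probe set 231898_x_at had 4427 and 6313 (0.51). Whether probe sets of either gene read the other was not tested.

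SOX9, which drives the switch from neurons to glia in development and marks astrocytes in the adult, was lower on both probe sets. Probe set 202936_s_at had 4170 on the control array and 2826 on the miR-31 array (-0.56), and 202935_s_at had 2616 and 1677 (-0.64). The pair lay 0.08 apart, and a ratio as low as -0.56 was found in 6.24% of the brightest genes and 7.38% of all genes. Across the scalings the brighter one lay between -1.11, centred on the poly-A controls, and -0.51.

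Of 15 other SOX genes 7 were compared, 5 with ratios above 0 and 2 below, beside 53.2% and 46.8% of all genes. The median of the 7 was 0.38 and became -0.17 when centred on the poly-A controls. SOX5 had 257 and 557 (1.07), and SOX4 had 3345 and 6048 (0.85), with its 4 probe sets between 0.70 and 1.49. SOX6, a partner of SOX5, had 0.38 and SOX15 had 0.54. SOX4 is among the reported direct targets of miR-31, and whether miR-31 acts on it in these cells was not tested.

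OLIG2, the transcription factor of oligodendrocyte precursors that is also found in many gliomas, was under the filter on both probe sets, which went in opposite directions. Probe set 213824_at had 2.68 on the control array and 24.5 on the miR-31 array (1.12), and 213825_at had 19.1 and 1.44 (-1.01). Together with 1 probe set of AQP4, these make 3 of the 12 marker probe sets under the filter that differ by 2-fold or more. Of all 18624 named probe sets under it, 18.1% differ as much. The rest of the lineage was mostly dim as well: of 18 oligodendrocyte lineage genes named on the array 6 were compared. Over the whole array 11787 of 19775 genes were. Of the 6, ratios were above 0 for 4 and below for 2, beside 53.2% and 46.8% of all genes. The median of the 6 was 0.11 and kept its sign in only 6 of 11 alternatives. It ran from -0.44, centred on the poly-A controls, to 0.38 with the stricter filter. OLIG1 and SOX10 stayed under the filter, with at most 30.1 and 53.8 on the control array and 19.8 and 22.7 on the miR-31 array. PDGFRA, the receptor for platelet-derived growth factor on these precursors, was bright, with 5601 and 9052 (0.69) but -0.02 on its other probe set. NKX6-2 had -0.98, BCAN 0.37 and MYRF -0.21, from control intensities of 113, 190 and 124.

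NES, the stem cell intermediate filament protein nestin, was lower in the miR-31 array on one probe set and level on the other. Probe set 218678_at had 11039 on the control array and 5877 on the miR-31 array (-0.91). Probe set 229346_at had 872 and 889 (0.03). The gap of 0.93 is about as large as the change itself and well above 0.47, the SD of such gaps, and the mean of both was -0.44. A ratio as low as -0.91 was found in 1.56% of the brightest genes and 2.21% of all genes. Centred on the hybridisation controls 218678_at had -1.10 and on the poly-A controls -1.46, both past 2-fold.

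PROM1, the surface protein prominin-1 or CD133 used to sort glioma stem cells, had 1 probe set, under the filter. Probe set 204304_s_at had 20.2 on the control array and 2.98 on the miR-31 array, a ratio of -0.93 on the log2(intensity + 16) scale. No detection call was used here, so values this dim cannot be separated from background.

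As a gauge of dim signal, 31 probe sets of genes restricted to other organs, such as albumin and insulin, had median intensities of 21.7 on the control array and 20.1 on the miR-31 array, and 90% of them lay under 52.4 and 49.0. Of these probe sets 3, from SFTPC and HBB, were at or above the filter, with at most 155 and 118. A value above the filter but within this range cannot be separated from background either. Examples on both arrays are NKX6-2, MYRF and SOX2 214178_s_at above and SNAP25 below. On the control array alone they include PANX2 and SOX15 above and ALDH1L1 and SALL2 below, and on the miR-31 array alone HES5 below. The 12 marker probe sets under the filter had at most 38.1 on the control array and 50.8 on the miR-31 array, where S100B 209686_at was the only one above 49.0. In a bulk RNA sample, fewer cells with a transcript and less of it per cell cannot be told apart.

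**Figure D2:**
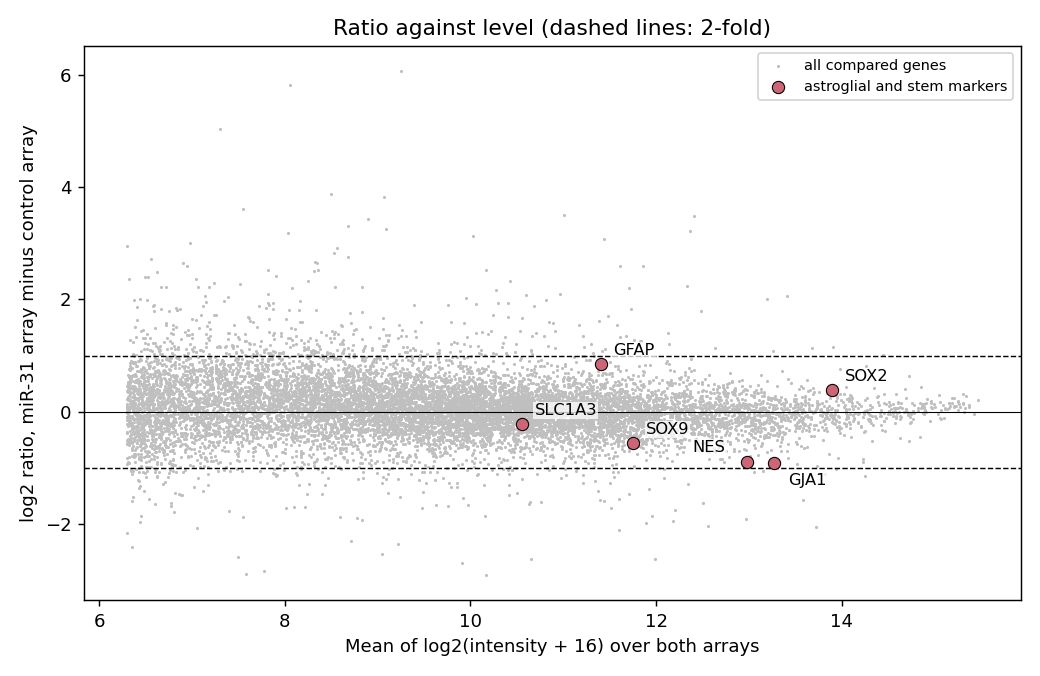
Ratio of each of the 11787 compared genes (grey) against its mean level, with the 6 compared markers as labelled points and dashed lines at 2-fold. NES and GJA1 sit just above the lower line, at -0.91 each, GFAP just under the upper line at 0.85, and SLC1A3 near 0.

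Counted together, 0 of 6 compared markers reached 2-fold in either direction, beside 3.74% and 1.58% of all genes. Apart from SLC1A3 these markers were among the 2947 brightest genes, of which 37 were at least 2-fold higher and 35 lower. With 6 genes a count of 0 is near either background and is no result about the markers. Above the filter were 12 marker probe sets, 6 with ratios above 0 and 6 below. Of the 12, 1 was at least 2-fold higher and 0 lower, beside 3.58% and 1.67% of all named probe sets above the filter. Among the 6 below 0 is SOX2 214178_s_at, with 77.5 on the control array and 51.0 on the miR-31 array. It passed the filter value of 62.7 only through the control array, so its sign is not separate from the filter. Ratios were above 0 for 2 of the 6 genes and below 0 for 4, beside 53.2% and 46.8% of all genes. The median ratio of the 6 genes was -0.39, from -0.91 to 0.85, where all genes had 0.03. At 1.5-fold GFAP was higher and GJA1 and NES were lower, beside 11.7% and 6.73% of all genes. Centred on the hybridisation controls GJA1 and NES were at least 2-fold lower, beside 3.11% of all genes, and centred on the poly-A controls SOX9 was as well, beside 10.9%. Without the level filter AQP4 and OLIG2 counted as at least 2-fold higher, from the dim probe sets given above, beside 5.99% of all genes.

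**Figure D3:**
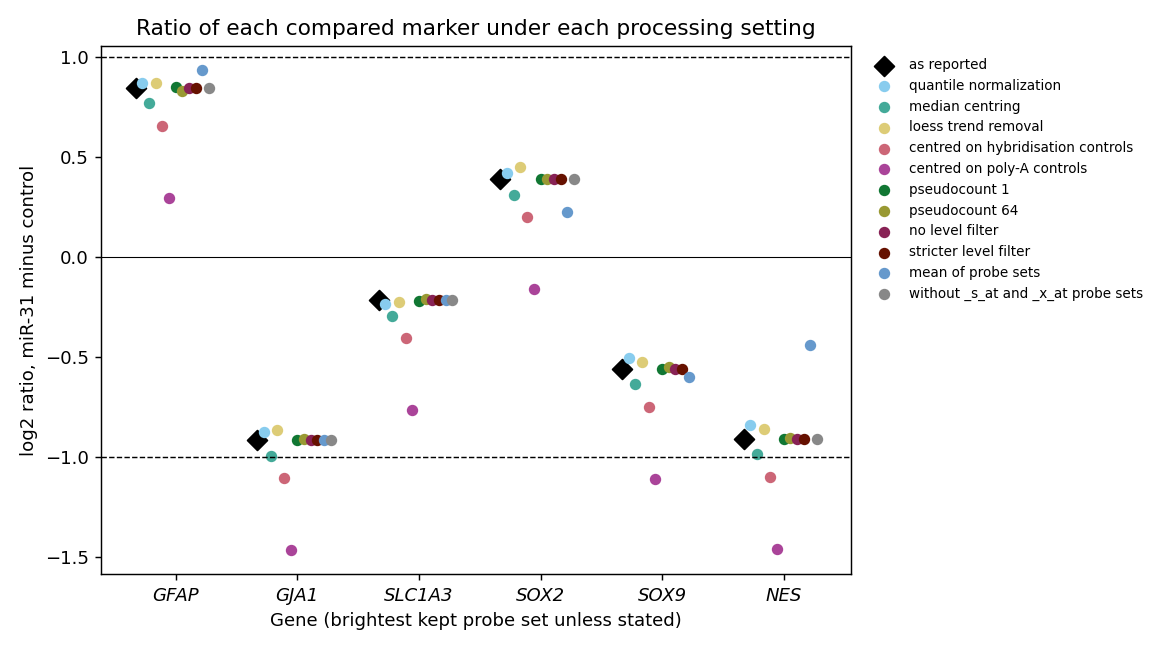
Ratio of the 6 compared markers under each processing setting, the reported value as a black diamond and dashed lines at 2-fold. GFAP stays above 0 and GJA1, SLC1A3, SOX9 and NES below 0 wherever they have a point, while SOX2 falls to -0.16 when centred on the poly-A controls. SOX9 has only _s_at probe sets, so it has no point in the setting without _s_at and _x_at probe sets.

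Other astrocyte genes were described from a list. Of 22 named on the array 14 were compared, 10 with ratios below 0 and 4 above, beside 46.8% and 53.2% of all genes. At least 2-fold lower were 2, ID4 and ID3, and higher 0, beside 1.58% and 3.74%. The list was chosen with earlier results of these data known, so these counts describe it and are no evidence of an excess. The median was -0.35 and kept its sign in each alternative, between -0.90 centred on the poly-A controls and -0.17 without the level filter. ID4 and ID3, inhibitors of helix-loop-helix transcription factors, had the lowest ratios: ID4 had 6449 and 1475 (-2.12, with 4 probe sets between -2.44 and -1.91) and ID3 had 29137 and 13124 (-1.15). FGFR3, a growth factor receptor of astrocytes and their precursors, had 1067 and 538 (-0.97). ALDH1L1, a folate enzyme used as a general astrocyte marker, had 85.5 and 155 (0.75), with a control value within the background range. Under the filter stayed 8 genes, among them ALDOC, SPARCL1 and MLC1, with at most 15.4, 23.3 and 30.7 on the control array and 56.8, 24.9 and 33.5 on the miR-31 array. Bright genes of the list included FABP7, with 24657 and 17202 (-0.52, and -0.78 on another probe set). CST3 had 1730 and 1612 (-0.10), and CLU had 1457 and 1539 (0.08, with 3 probe sets between -0.21 and 0.47). ALDOC, SPARCL1, MLC1, GJB6, FABP7, CST3 and CLU were named after their values were seen.

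Factors that set astroglial fate, among them the NFI family and the Notch pathway, were above the filter for 13 of 14 genes. Over the whole array this held for 11787 of 19775 genes. Ratios of the 13 were above 0 for 8 and below for 5, beside 53.2% and 46.8% of all genes. The median of the 13 was 0.05 and kept its sign in 6 of 11 alternatives. It was below 0 under each other scaling, down to -0.50 centred on the poly-A controls. NFIX, a nuclear factor of glial differentiation, had 1119 and 2293 (1.02), with its 3 probe sets between 0.85 and 1.02. A pair of Notch target genes had ratios below 0, HES5 with 165 and 76.4 (-0.97) and HEY1 with 5925 and 3316 (-0.83, and -0.94 on another probe set). The 3 probe sets of RUNX2 had ratios between 0.52 and 1.93.

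Of 21 other neural and glioma stem genes named on the array 15 were compared, 10 with ratios below 0 and 5 above, beside 46.8% and 53.2% of all genes. Past 2-fold were 0, beside 1.58% lower and 3.74% higher of all genes. The median was -0.24, and lay between -0.79, centred on the poly-A controls, and -0.17 over the alternatives. ALDH1A3, a retinaldehyde dehydrogenase of stem-like glioma cells, had 1041 and 514 (-0.997, so not counted at 2-fold on the log2(intensity + 16) scale). PAX6, a transcription factor of radial glia, had 1066 and 619 (-0.77, and -0.27 on another probe set), and PTPRZ1, a receptor phosphatase of radial glia, had -0.72. SALL2 had 135 and 270 (0.92).

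Markers of other lineages were measured beside these. Over the whole array 11787 of 19775 genes were above the filter, with 53.2% of their ratios above 0 and 46.8% below. Mesenchymal glioma genes were above it for 15 of 16 genes, with 8 ratios above 0 and 7 below. The median of the 15 was 0.02 and kept its sign in 6 of 11 alternatives, from -0.53 centred on the poly-A controls to 0.07. PLAUR, the urokinase receptor, had -1.48, with its 3 probe sets between -1.55 and -0.76. FN1, fibronectin, had 0.82, with its 5 probe sets between 0.25 and 0.99. CEBPD, a transcription factor of the acute phase, had 1.06 and LGALS3, galectin-3, 0.47. Neuron markers were above it for 7 of 15 genes, with a median of 0.30, or -0.25 centred on the poly-A controls. SYT1, a synaptic vesicle protein, had 345 and 705 (0.999, also not counted on that scale), MAP2 had 0.33 and SNAP25 -0.60, with 0.18 on its other probe set. Of 15 microglia, macrophage and lymphoid markers 3 were compared, ITGAM, CSF1R and CD79A, with ratios of -0.25, 0.35 and 0.51 and control intensities of at most 121. The summed intensity of that list over its 31 probe sets was 613 on the control array and 793 on the miR-31 array, and no probe set of the array was listed at 0. The part of any other cell type in the marker ratios was not tested.

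**Figure D4:**
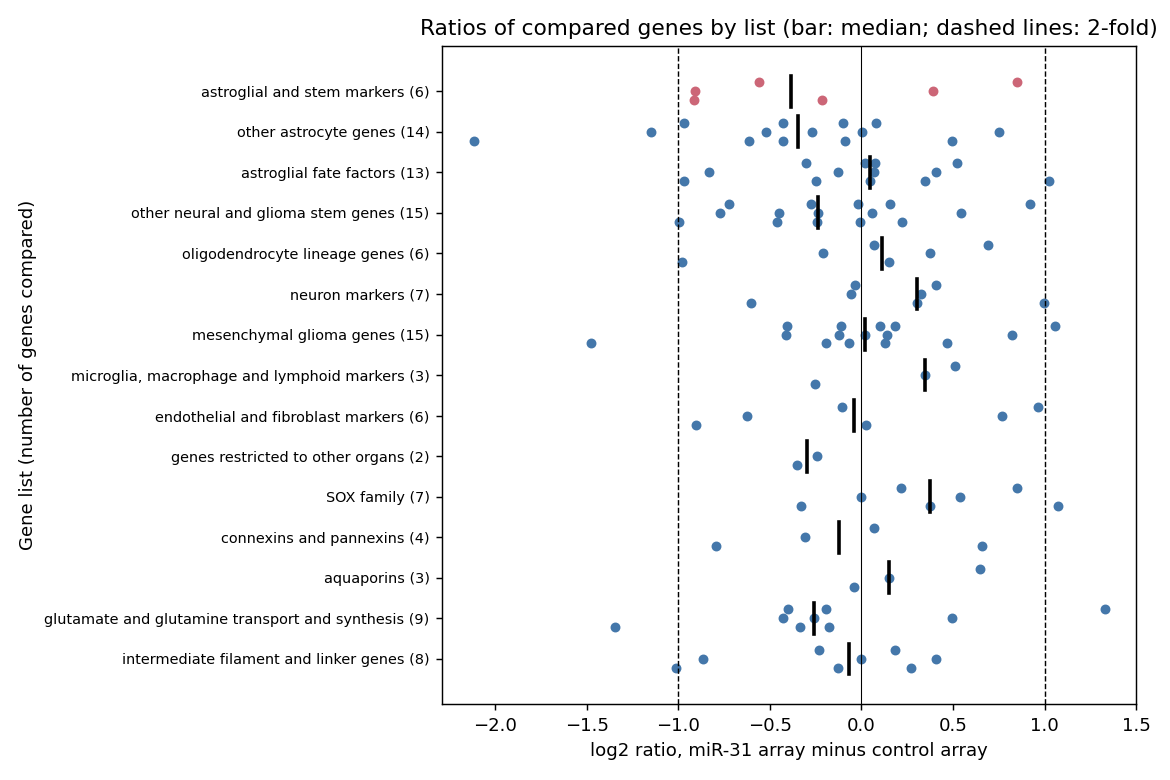
Ratio of each compared gene in 15 gene lists, with the list median as a black bar, dashed lines at 2-fold and the number of genes compared in parentheses. The 6 markers spread from -0.91 to 0.85 with a median of -0.39, and each other list also spreads over both sides of 0 except the 2 genes restricted to other organs, at -0.35 and -0.24; centring on the poly-A controls would move every point left by 0.55.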

How the data were processed

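The authors deposited 1 table of linear intensities, 1 value per probe set and array; software: not given in the sources used here. Per the labels' protocols, trizol extracts of total RNA were labelled with biotin. Probe sets were named from the platform annotation: 41097 had 1 symbol, 1801 several and 11777 none here. All 10 markers matched RefSeq by Entrez identifier. The 62 control probe sets were left out of gene comparisons. A gene was represented by its brightest probe set above the filter, and called at 2-fold on the log2(intensity + 16) scale. With 1 array per group no p-value was computed, and the number of arrays limits the precision. Markers and lists were chosen with earlier results of these data known. The named-gene rule took all markers, up to 4 genes with the largest absolute ratio from each of 14 other lists, and relatives sharing a marker's name stem. The calculation was tested on simulated data. Alternatives are given in the closing section. Python 3.11.15, numpy 2.4.6, pandas 2.3.3, statsmodels 0.14.6 and matplotlib 3.10.9 were used.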

Additional observations from a re-analysis of the deposited data

How the results depend on the processing

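No paired analysis was possible because a group is a single array, and for the same reason none was left out. The number of markers at least 2-fold lower, 0, became 2 when centred on the hybridisation controls, 3 when centred on the poly-A controls and 2 at 1.5-fold. The number at least 2-fold higher, 0, became 2 without the level filter, from dim probe sets of AQP4 and OLIG2, and 1 at 1.5-fold. The marker median of -0.39 became -0.58 and -0.94 with the same spike-in centrings. Without the _s_at and _x_at probe sets SOX9 dropped out, and the median over the 5 genes left was -0.22. Without the level filter it was 0.044, the opposite sign, over all 10 genes. The other alternatives moved the median by less than an error estimated from the probe set SD of 0.33. Over all genes, 441 higher and 186 lower became 283 and 124 with a pseudocount of 64, 1184 and 1002 without the filter, 222 and 112 with a filter at an intensity of 271, 266 and 367 centred on the hybridisation controls, 124 and 1279 centred on the poly-A controls, and 1376 and 793 at 1.5-fold. A filter or threshold by its construction sets how many genes could pass. Signal near background limits S100B, AQP4, OLIG2 and PROM1.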

Other observations

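Endothelial and fibroblast markers, read beside the glial ones, were above the filter for 6 of 15 genes. Over the whole array 11787 of 19775 genes were. Of the 6, ratios were above 0 for 3 and below for 3, beside 53.2% and 46.8% of all genes. The median of the 6 was -0.04, but 0.02 with the mean of probe sets and 0.50 without the _s_at and _x_at probe sets. KDR, a receptor for vascular endothelial growth factor, had 539 on the control array and 281 on the miR-31 array (-0.90). The 2 chains of type I collagen had opposite signs: COL1A2 had 12349 and 21028 (0.77, with 3 probe sets between 0.52 and 1.02), and COL1A1 had 1630 and 1052 (-0.62, with 3 probe sets between -0.74 and 0.11). ACTA2, smooth muscle actin, had 200 and 406 (0.97).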
